A study of Homo sapiens with 3 samples.

Results

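Replication-dependent histone genes encode the bulk histones H1, H2A, H2B, H3 and H4 that package newly copied DNA. They were taken as every gene symbol that begins with HIST1H, HIST2H, HIST3H or HIST4H followed by a histone type, which gave 70 of the 25270 symbols listed for each library. By type, 6 were H1, 17 were H2A, 20 were H2B, 13 were H3 and 14 were H4 genes. By gene cluster, 56 belonged to HIST1 on chromosome 6, 10 to HIST2 and 3 to HIST3 on chromosome 1, and 1 to HIST4 on chromosome 12.

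The study followed gene expression in HepG2, a human hepatocellular carcinoma line, to find genes that accompany high lactate and cell motility. RNA-seq was run on parental HepG2 cells, on HepG2/metR cells, a derived line selected by more than 5 months of exposure to metformin, and on HepG2/metR cells given the lactate dehydrogenase inhibitor oxamate at 40 mM for 24 h. Metformin blocks complex I of the respiratory chain. Each condition had 1 library, so no difference reported here had a replicate check, and no test was possible.

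The labels call all 3 libraries HepG2, but hepatocyte genes were far lower in the libraries labelled HepG2/metR. The summed FPKM (fragments mapped per length of transcript and per library size) of 10 hepatocyte markers was 32040 in parental HepG2, 14.0 in HepG2/metR and 11.2 with oxamate. HNF4A, a transcription factor that defines hepatocytes, stood at 68.7, 0.0156 and 0.0153 FPKM. SERPINA1 stood at 11.2 and 7.10 FPKM in the HepG2/metR libraries, against 1708.5 in parental HepG2. FGB stood at 1.30 and 2.26 FPKM in the HepG2/metR libraries, where the other 8 markers were under 1 FPKM. Whether all 3 libraries stem from the same line was not tested. The selection with metformin, the lower markers and any difference of line cannot be told apart in any comparison with the parental library. The libraries summed to 562382, 534646 and 473773 FPKM in that order. The steps between low values put the depth of the HepG2/metR library at 1.21 times, and that of the oxamate library at 1.23 times, the parental depth.

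Replication-dependent histone mRNAs are made in S phase, when the factor NPAT activates the clusters. Nearly all of them end in a conserved stem-loop instead of a poly(A) tail. The stem-loop binding protein SLBP holds that structure, the U7 small nuclear ribonucleoprotein directs the cut behind it, and the mRNA is destroyed when DNA synthesis stops. Some of these genes also give polyadenylated mRNA that reads past the stem-loop, which is known from differentiated and non-dividing cells. The label for the molecule was total RNA. Whether poly(A) RNA was selected for the libraries is not given in the sources used here, so a low value may be a low level or an mRNA without a tail that the library did not hold. In bulk RNA, fewer cells in S phase and less histone mRNA per cell cannot be told apart.

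The stem-loop is shown first because it separates histone mRNA from other mRNA and because transcripts that run on behind it are those a poly(A) library could hold. An exact stem of 6 base pairs around a loop of 4 bases was found in an annotated transcript (GENCODE release 29, build GRCh38) of 27 of the 70 genes. The most common form, in 15 genes of types H2A, H2B and H3, is given for HIST1H2AC (chr6:26124664-26124689, plus strand) and HIST2H2BE (chr1:149886183-149886208, minus strand). Another form, in 5 genes of types H2B and H3, is given for HIST1H2BD (chr6:26158582-26158607, plus strand). The H4 form, in 5 genes, is given for HIST4H4 (chr12:14770719-14770744, minus strand). Each lies in the 3′ untranslated region, and capitals mark the stem and loop.
HIST1H2AC: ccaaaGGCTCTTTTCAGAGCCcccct
HIST2H2BE: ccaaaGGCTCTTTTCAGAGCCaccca
HIST1H2BD: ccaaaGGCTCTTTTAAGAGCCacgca
HIST4H4: caaaaGGCCCTTTTCAGGGCCcccaa

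Of the 27 genes with the match, 19 had an annotated transcript that ran on for at least 100 bases behind it, such as HIST1H2AC with 1114 bases in its protein-coding form and HIST2H2BE with 1729. Of these 19, 10 reached 1 FPKM in at least 1 library and 5 were listed at 0 in all of them. Of the 8 that ended near the stem-loop, 5 reached 1 FPKM and 2 were listed at 0 throughout. The 8 included HIST1H2BD (9.01 FPKM in parental HepG2), a gene known to give a polyadenylated form as well. The remaining 43 had no exact match, and for 32 of them only coding sequence was annotated, so that the stem-loop could not have been seen. Of the 43, 11 reached 1 FPKM in at least 1 library and 14 were listed at 0 in all of them. No such shares were computed over all symbols, and nothing is read from these counts. HIST1H1C and HIST1H2BK, also known to give polyadenylated forms, were among the 43. The grouping by annotation thus does not separate genes with a known polyadenylated form from the rest.

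All 70 genes together held 123.6 FPKM in the parental library, 111.8 in HepG2/metR and 103.3 with oxamate, which was 0.0220%, 0.0209% and 0.0218% of each library. These are low sums beside those of 18 genes listed as replication-independent histone genes, whose mRNAs mostly carry poly(A) tails. The 18 held 1357, 1813 and 1100 FPKM. H2AFZ alone, which encodes the variant H2A.Z, stood at 516, 942 and 530 FPKM. The number of replication-dependent genes listed at 0 was 27 in parental HepG2, 34 in HepG2/metR and 40 with oxamate, or 38.6%, 48.6% and 57.1% of them. Among all symbols the share listed at 0 was 36.2%, 36.1% and 35.0%. Histone genes at 1 FPKM or more numbered 20, 17 and 12.

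By pattern, 25 genes were above 0 in all 3 libraries and 21 were at 0 in all of them. Among the 21 were all 4 known as testis-specific, HIST1H1T, HIST1H2AA, HIST1H2BA and HIST3H3. A further 12 were above 0 only in parental HepG2, 5 were at 0 only with oxamate, and 4 (HIST1H3A, HIST1H4A, HIST3H2A and HIST3H2BB) were above 0 only in both HepG2/metR libraries. The other 3, HIST1H1A, HIST1H3F and HIST1H4D, had mixed patterns and no value above 0.541 FPKM. The 12 were among 43 histone genes above 0 in parental HepG2. Over all symbols above 0 in parental HepG2, 7.74% were at 0 in both HepG2/metR libraries. No such share was computed for the 5 or the 4, and nothing is read from the pattern counts. The smallest value above 0 of any histone gene was 0.0720, 0.0607 and 0.137 FPKM, so many of the low levels lay close to the smallest values a histone gene showed. Other genes reached lower values, such as SLC17A4 at 0.0120 FPKM in parental HepG2.

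**Figure D1:**
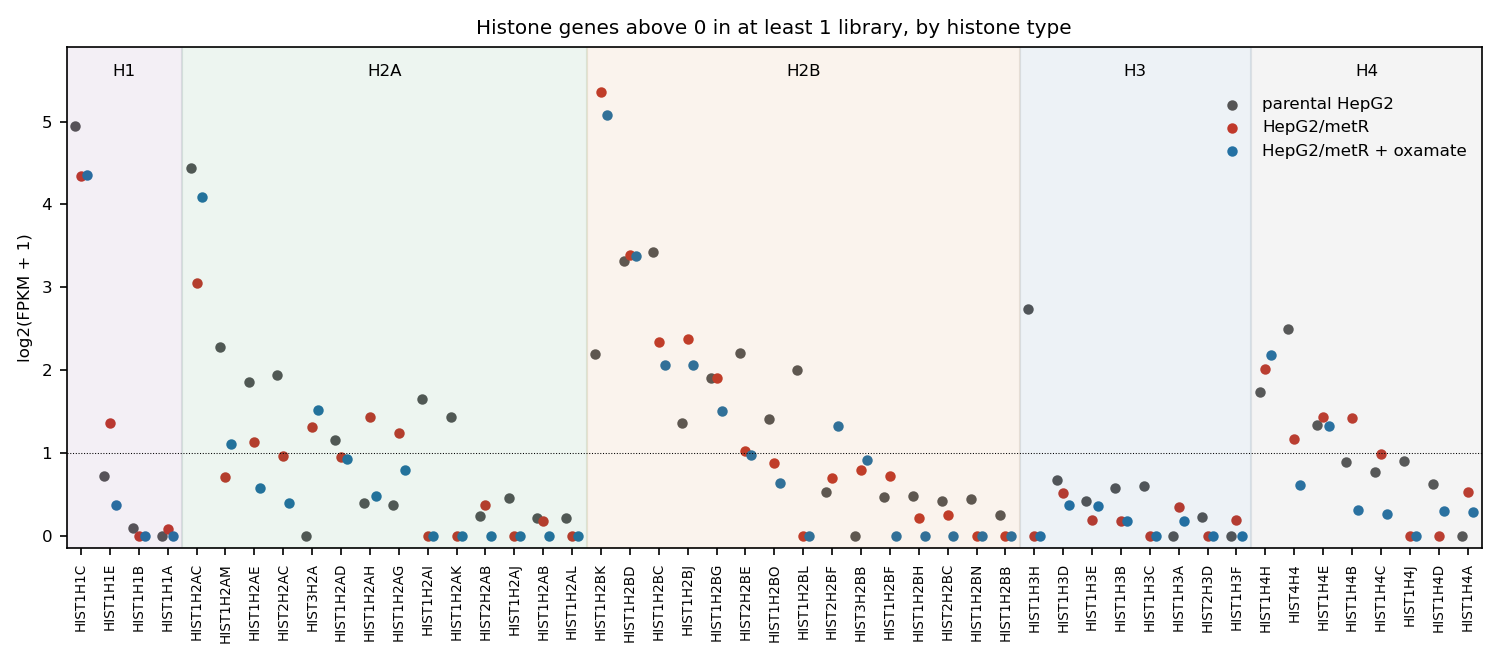
Level of the 49 histone genes above 0 in at least 1 library, as log2(FPKM + 1), grouped by histone type and ordered by mean level, with 1 point for each of the 3 libraries. HIST1H2BK stands highest in both HepG2/metR libraries and HIST1H1C in parental HepG2, and most genes lie under the dotted line at 1 FPKM.

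A few genes carried most of each sum. A short list of 5 genes known to give polyadenylated forms held 53.9% of the summed histone FPKM in the parental library, 68.8% in HepG2/metR and 76.1% with oxamate. The 5 were HIST1H1C, HIST1H2AC, HIST1H2BD, HIST1H2BK and HIST2H2BE. The other 65 genes held 56.9, 34.8 and 24.7 FPKM. The list may not be complete, since some of the 65, such as HIST4H4, also had an annotated transcript that ran on behind the stem-loop. The 5 were listed from general knowledge with results of these data known, so their share is a description.

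The sums by type did not move together. H2B had 37.1 FPKM in the parental library, 64.7 in HepG2/metR and 54.3 with oxamate. H2A stood at 36.6, 15.998 and 21.9 FPKM. H1 stood at 30.5, 20.9 and 19.7 FPKM, H4 at 11.5, 9.11 and 6.49, and H3 at 7.83, 1.13 and 0.863. H2A and H2B pair as dimers in the nucleosome. The order of their sums rested on HIST1H2BK, since without it H2B stood at 33.6, 24.8 and 21.5 FPKM, highest in parental HepG2. HIST1H2BK alone made up 2.89%, 35.7% and 31.8% of the histone sum, and without it the sum of all types was 119.999, 71.9 and 70.5 FPKM.

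**Figure D2:**
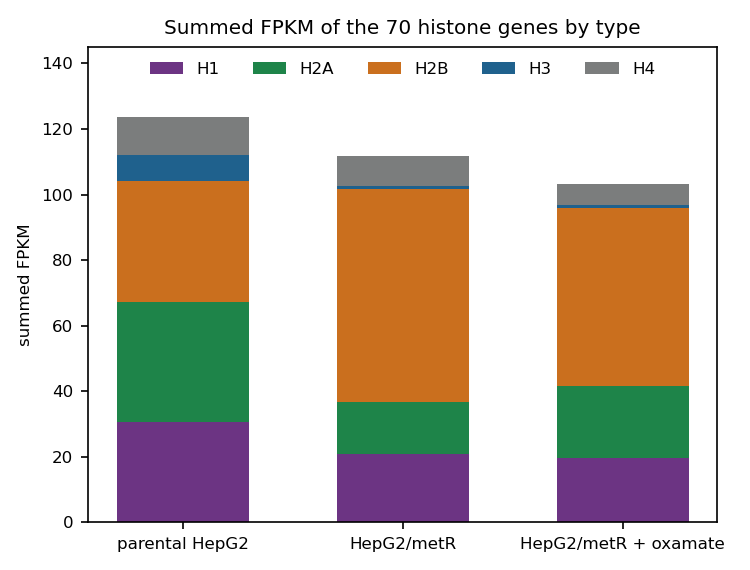
Summed FPKM of the 70 histone genes in each of the 3 libraries, stacked by histone type, 1 library per bar. H2B takes 37.1, 64.7 and 54.3 FPKM from left to right, and H3 is a thin band of 1.13 and 0.863 FPKM in the HepG2/metR libraries.

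Changes between libraries were read as differences of log2(FPKM + 1) for genes with a mean of at least 1 FPKM, which left 19 of the 70 histone genes and 12210 genes in all. The added 1 understates the change of low genes. In HepG2/metR against parental HepG2, 3 of the 19 stood higher by 2-fold or more (15.8%, background 16.6%) and 7 stood lower by 2-fold or more (36.8%, background 17.6%). The median log2 difference was -0.60, against 0.015 over all genes. Of the 19, 5 (HIST1H2AD, HIST1H2BL, HIST1H2BO, HIST1H3H and HIST2H2AC) were under 1 FPKM in both HepG2/metR libraries and so passed the filter through the parental library. HIST3H2A was under 1 FPKM in parental HepG2 and passed through the others. A direction was thus fixed for these genes, and nothing is read from the counts or the median.

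Among the 6 replication-dependent genes of H1, the linker histone that binds the DNA between nucleosomes, HIST1H1C was the only one above 2 FPKM. HIST1H1C had 29.8 FPKM in the parental library, 19.2 in HepG2/metR and 19.4 with oxamate, a log2 difference of -0.60 and then 0.02. HIST1H1E was at 0.654, 1.57 and 0.298 FPKM and was highest in the untreated HepG2/metR library. HIST1H1B and HIST1H1A had no value above 0.0720 FPKM, and HIST1H1D was at 0 throughout.

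HIST1H2AC, the H2A gene with the highest mean level, was past the threshold in both comparisons, and with the pseudocount of 1 no other of the 19 was. Its parental level of 20.6 FPKM compared with 7.27 in HepG2/metR and 15.998 with oxamate, thus 2.84-fold lower in HepG2/metR and 2.201-fold higher again with oxamate. Over all genes kept, 0.672% had this order of lower and then higher. None of the 19 passed both thresholds as higher and then lower (background 0.958%) or as lower and then lower (background 0.229%). With a pseudocount of 0.1, HIST1H2AM joined HIST1H2AC as lower and then higher (-2.41 and 0.76, background 2.57%). With that pseudocount 3 genes passed as lower at both steps (background 0.852%), namely HIST1H2AE (-1.08 and -1.12), HIST2H2AC (-1.49 and -1.32) and HIST4H4 (-1.83 and -1.07).

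HIST1H2AM, another H2A gene, stood at 3.86, 0.644 and 1.16 FPKM, with log2 differences of -1.57 and 0.40. HIST1H2AE stood at 2.64, 1.20 and 0.498 FPKM, lower at each step (-0.73 and -0.55). HIST2H2AC stood at 2.84, 0.947 and 0.319 FPKM, also lower at each step (-0.98 and -0.56). These 3 genes were all highest in parental HepG2.

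HIST1H2BK had the largest positive log2 difference of the 19 genes in HepG2/metR against parental HepG2. Its level was 3.58 FPKM in the parental library, 39.96 in HepG2/metR and 32.8 with oxamate, 11.2-fold higher in HepG2/metR (log2 difference 3.16) and then -0.28. HIST1H2BJ, which lies near it in the cluster, stood at 1.58, 4.21 and 3.17 FPKM (1.01 and -0.32). Both HepG2/metR libraries were above the parental library for these H2B genes. The annotation of HIST1H2BK overlaps that of HIST1H4I, which was listed at 0 throughout, and without knowledge of the strand in counting, reads of the overlap cannot be assigned.

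Other H2B genes differed less or were lower in HepG2/metR. HIST1H2BD differed least, at 9.01, 9.48 and 9.37 FPKM (0.07 and -0.02). HIST1H2BG stood at 2.74, 2.74 and 1.84 FPKM (0.00 and -0.40). HIST1H2BC stood at 9.79, 4.09 and 3.17 FPKM (-1.09 and -0.29), and HIST2H2BE at 3.64, 1.04 and 0.970 FPKM (-1.18 and -0.05). HIST1H2BC passed 2-fold lower under the deposited scaling but not under upper-quartile scaling, where its log2 difference was -0.96.

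Of the 13 H3 genes, 1 passed the filter, and it did so through the parental library. This gene, HIST1H3H, stood at 5.70 FPKM in parental HepG2 and was listed at 0 in both HepG2/metR libraries. The H3 genes HIST1H3D, HIST1H3E, HIST1H3B and HIST1H3C, had no value above 0.601 FPKM in any library. HIST1H3D overlaps HIST1H2AD in the annotation, so its values are uncertain. The 10 HIST1H3 genes encode 1 and the same protein of 136 residues by their annotated coding sequences, and together they held 7.65, 1.13 and 0.863 FPKM.

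H4 showed the same redundancy. Of 14 H4 genes, 13 encode an identical protein of 103 residues, and in each library 6, 7 and 6 of these were listed at 0. HIST4H4, the lone gene of its cluster, stood at 4.67, 1.24 and 0.539 FPKM (-1.34 and -0.54), highest in parental HepG2. HIST1H4H stood at 2.33, 3.04 and 3.53 FPKM (0.28 and 0.17), highest with oxamate, and HIST1H4E at 1.53, 1.71 and 1.52 FPKM (0.10 and -0.10). HIST1H4B (0.861, 1.69 and 0.245 FPKM) and HIST1H4C (0.712, 0.994 and 0.202 FPKM) had means under 1 FPKM. Among genes for the same protein, HIST4H4 was thus the highest in the parental library and HIST1H4H in both HepG2/metR libraries.

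Genes with equal proteins elsewhere also differed in level from one another. HIST1H2AG, HIST1H2AI, HIST1H2AK, HIST1H2AL and HIST1H2AM encode 1 H2A protein and held 8.19, 2.004 and 1.91 FPKM, with all 5 above 0 in parental HepG2 and 3 at 0 in each HepG2/metR library. HIST1H2BC, HIST1H2BE, HIST1H2BF, HIST1H2BG and HIST1H2BI encode 1 H2B protein and held 12.9, 7.48 and 5.01 FPKM. HIST1H2BC was the highest of them in every library. In all, the 67 genes with a complete coding sequence encoded 36 distinct proteins. The coding sequences also resemble each other: the median identity of a gene to its closest relative of the same type and length was 89.7% for H2A, 93.2% for H2B, 88.1% for H3 and 85.9% for H4, and HIST1H4J and HIST1H4K were identical. Reads that fit several such genes could be split or dropped in counting, so the division of a sum among close copies is less certain than the sum.

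Along chromosome 6, 28 of the 56 HIST1 genes were listed at 0 in HepG2/metR, against 20 in parental HepG2. Some of the 28 lay side by side in 1 run, and the rest lay elsewhere in the cluster. A run of 14 neighbouring histone genes, from HIST1H2BL to HIST1H3J over 85663 bases (GRCh38), was listed at 0 in both HepG2/metR libraries. In parental HepG2, 9 of the 14 were above 0, 4 of them at 1 FPKM or more, and the run held 14.4 FPKM. The 4 were HIST1H3H at 5.70, HIST1H2BL at 3.003, HIST1H2AI at 2.15 and HIST1H2AK at 1.72 FPKM. Of the 27 other HIST1 genes above 0 in parental HepG2, 2 (7.41%) were at 0 in both HepG2/metR libraries. Over all symbols above 0 in parental HepG2 this share was 7.74%, and over those at 1 FPKM or more it was 2.60%. The run was found by its values, so these shares are a description.

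The next histone genes on both sides of the run were detected in every library. On one side lay HIST1H2BK and HIST1H2AH, at 3.58, 39.96 and 32.8 FPKM and at 0.316, 1.71 and 0.397 FPKM. These 2 do not adjoin the run. The promoter of HIST1H2BK lies at chr6:27146859-27147105, and the stem-loop of HIST1H2BL, the first gene of the run, at chr6:27807479-27807504. On the other lay HIST1H2AM and HIST1H2BO, at 3.86, 0.644 and 1.16 FPKM and at 1.67, 0.834 and 0.560 FPKM. LINC01012, a noncoding RNA gene within the HIST1 cluster that was named after its values were seen, stood at 2.33 FPKM in parental HepG2 and at 0 in both HepG2/metR libraries. Of 28 non-histone genes found within the HIST1 cluster, 14 had a mean of at least 1 FPKM. Of these 14, HCG11 and HMGN4 were past 2-fold on the higher side in HepG2/metR and SLC17A2 on the lower side (background 16.6% and 17.6%), with a median log2 difference of 0.12. SLC17A2, at 3.81 FPKM in parental HepG2 and at 0 in the others, passed the filter through the parental library alone. None of the 14 passed 1.5-fold with oxamate.

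**Figure D3:**
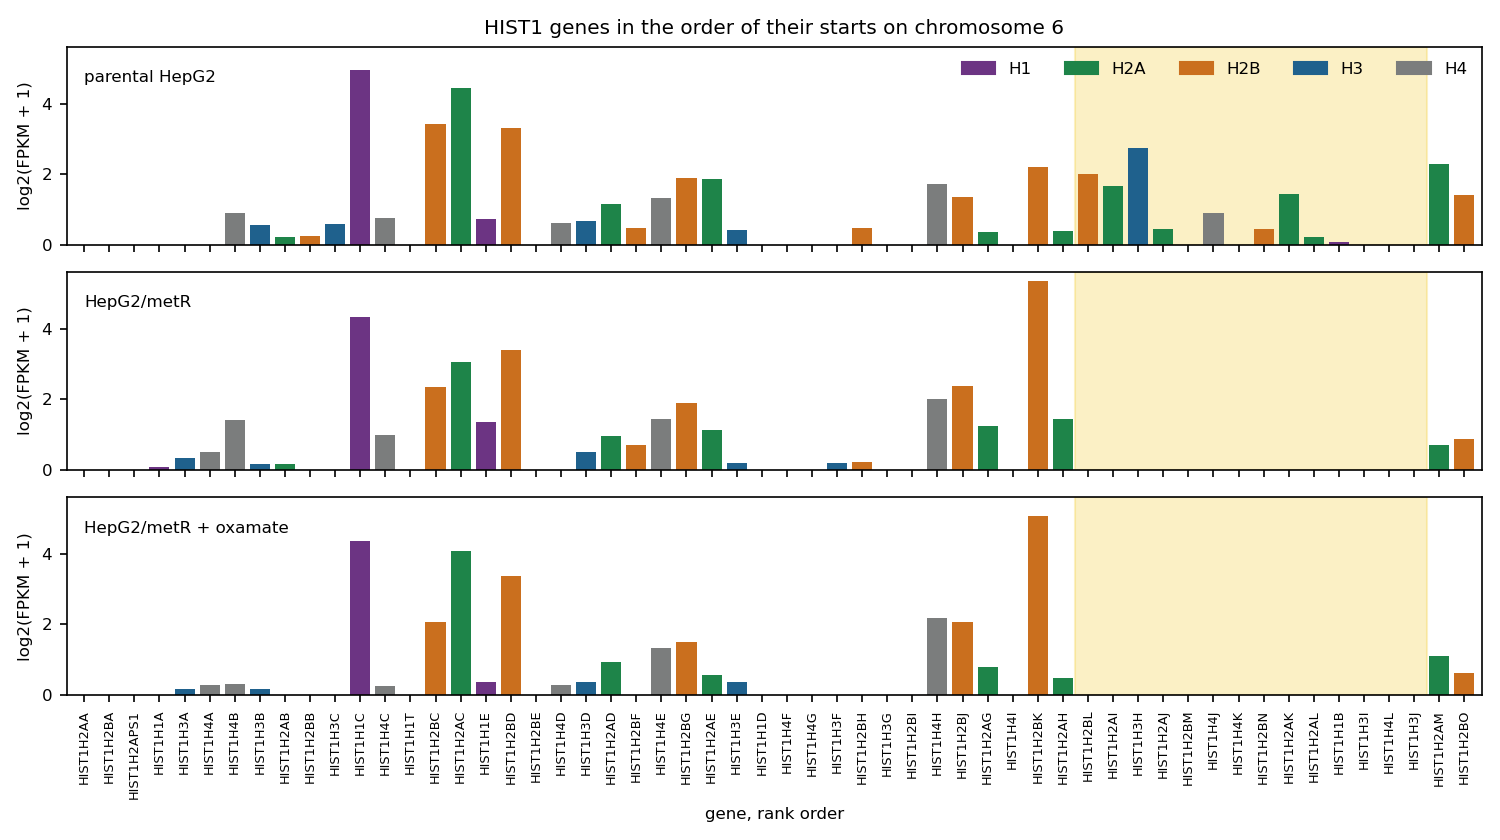
Level of the 56 HIST1 genes as log2(FPKM + 1) in each library, in the order of their starts on chromosome 6 and coloured by histone type. The shaded run of 14 genes is empty in both HepG2/metR libraries, and 9 of them are above 0 in parental HepG2.

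The HIST3 cluster showed the reverse order to this run. HIST3H2A was listed at 0 in the parental library, with 1.49 FPKM in HepG2/metR and 1.87 FPKM with oxamate, and HIST3H2BB stood at 0, 0.739 and 0.894 FPKM. HIST3H3 was at 0 throughout. No fold is given against the listed 0. The HIST2 cluster held 7.62, 3.10 and 2.79 FPKM, and its genes HIST2H2AA3, HIST2H3C and HIST2H4B, each known to have a near-identical copy, were at 0 in all 3 libraries.

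H2A and H2B genes often lie head to head and share the sequence between their starts. In the annotation, 11 such pairs had starts 219 to 331 bases apart, and in 9 both genes were above 0 in some library. In 7 of these 9, both genes differed in the same direction between HepG2/metR and parental HepG2. Both were higher in HepG2/metR for HIST1H2BK with HIST1H2AH, HIST1H2BJ with HIST1H2AG, and HIST3H2A with HIST3H2BB. Both were lower for HIST2H2BE with HIST2H2AC, HIST1H2BC with HIST1H2AC, HIST1H2BL with HIST1H2AI, and HIST1H2AM with HIST1H2BO. HIST1H2BL and HIST1H2AI were at 0 in both HepG2/metR libraries, and HIST3H2A and HIST3H2BB were at 0 in parental HepG2. The shared direction of these pairs was thus fixed. No such share was computed for genes outside pairs, and nothing is read from the pair counts in either comparison.

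The members of a pair could also differ in size. HIST1H2BK was higher by 3.16 on the log2 scale and its partner HIST1H2AH by 1.04. With oxamate, 6 of the 9 pairs differed in 1 direction and in 1 pair, HIST1H2BL with HIST1H2AI, both stayed at 0. HIST1H2BC and HIST1H2AC, whose starts are 219 bases apart, differed in opposite directions, by -0.29 and 1.04.

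The promoters are shown because the genes of a pair share one, and because the histone types differ in their promoter letters. RefSeq promoters (build GRCh38.p14, 250 bases before to 50 after the start) were matched for 62 of the 70 genes and searched on both strands. CCAAT was found in all 6 H1, 15 H2A, 18 H2B and 11 H3 promoters, but in 3 of 12 H4 promoters (25.0%), against 35.7% of all 27305 promoters. TATAAA was in 66.1% of the histone promoters and 11.95% of all. The octamer ATTTGCAT was in 73.3% of H2A and 77.8% of H2B promoters, in 0 of 12 H4 promoters and in 1.80% of all. AAACACA, known from H1 promoters, was in all 6 H1 promoters and 5.76% of all. Of the E2F-like motifs, TTTGGCGC was in 0 and TTTCCCGC in 1 of the 62, against 0.659% and 1.66% of all.

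For 4 genes with unlike orders of levels, chosen after their values were seen, the bases upstream of the start are given, 5′ to 3′ on the strand of the gene, with the CCAAT box, the TATAAA letters and the octamer in capitals on either strand. The regions are chr6:27146859-27147105 (minus strand) for HIST1H2BK, chr6:26123927-26124171 (plus strand) for HIST1H2AC, chr6:27809801-27810050 (plus strand) for HIST1H3H and chr12:14771132-14771381 (minus strand) for HIST4H4.
HIST1H2BK: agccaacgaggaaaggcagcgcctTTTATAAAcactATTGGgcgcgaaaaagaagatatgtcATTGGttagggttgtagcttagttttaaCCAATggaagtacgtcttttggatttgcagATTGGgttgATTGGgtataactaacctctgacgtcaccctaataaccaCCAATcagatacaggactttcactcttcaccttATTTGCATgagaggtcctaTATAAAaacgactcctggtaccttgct
HIST1H2AC: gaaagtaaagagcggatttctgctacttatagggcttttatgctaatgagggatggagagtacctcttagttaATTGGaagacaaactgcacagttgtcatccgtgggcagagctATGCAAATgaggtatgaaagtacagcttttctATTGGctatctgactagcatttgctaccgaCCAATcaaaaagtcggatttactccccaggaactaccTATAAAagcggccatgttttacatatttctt
HIST1H3H: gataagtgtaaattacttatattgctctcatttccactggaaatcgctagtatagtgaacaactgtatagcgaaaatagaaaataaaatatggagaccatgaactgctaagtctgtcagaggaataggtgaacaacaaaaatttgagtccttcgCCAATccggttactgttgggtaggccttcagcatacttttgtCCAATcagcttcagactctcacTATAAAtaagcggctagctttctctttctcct
HIST4H4: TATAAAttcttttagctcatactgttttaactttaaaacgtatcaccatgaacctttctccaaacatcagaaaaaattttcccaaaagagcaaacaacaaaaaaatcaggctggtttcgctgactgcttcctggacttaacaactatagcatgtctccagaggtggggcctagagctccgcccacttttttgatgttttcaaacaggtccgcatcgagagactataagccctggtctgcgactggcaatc

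Counted to the first base of a match, HIST1H2BK carries the octamer 46 bases before the start and HIST1H2AC carries it on the reverse strand at 130 bases. The nearest TATAAA lies 27 bases before the start of HIST1H2BK and 31 bases before that of HIST1H2AC. HIST1H3H has CCAAT at 54 and 96 bases and TATAAA at 32 bases before the start, without the octamer. HIST4H4 has none of these letters near its start, with a TATAAA only at 250 bases before it. These matches describe the windows and were not tested against the levels.

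With oxamate, the histone genes were set beside other genes of S phase. Of the 19 histone genes, 1 (HIST1H2AC) was at least 1.5-fold higher (5.26%, background 4.3%) and 0 were at least 1.5-fold lower (background 3.82%). By sign, 5563 of all 12210 genes kept were below and 6461 above 0 difference, with a median log2 difference of 0.021. Of the 19 histone genes, 12 were below and 5 above 0 difference, and the median log2 difference was -0.05. The rest, HIST1H2BL and HIST1H3H, were at 0 in both libraries and passed the filter through the parental library. Their difference of 0 was thus fixed. With a pseudocount of 0.1 in place of 1, 3 passed 1.5-fold lower (HIST1H2AE, HIST2H2AC and HIST4H4, background 4.97%) and 2 passed 1.5-fold higher (HIST1H2AC and HIST1H2AM, background 8.34%). In FPKM without a pseudocount, of these 3 lower genes HIST2H2AC was 2.97-fold, HIST1H2AE 2.40-fold and HIST4H4 2.31-fold lower. Over all 70 without a filter, 5 passed 1.5-fold lower (background 1.91%) and 2 higher (background 2.28%). By sign, 27 of the 70 were below and 10 above 0 difference. The signs over all symbols without a filter were not counted, so nothing is read from these 2 numbers. The 5, all with a mean under 1 FPKM, were HIST1H4B, HIST1H1E, HIST1H4C, HIST1H2AH and HIST1H2BF. In FPKM, HIST1H4B was 6.87-fold, HIST1H1E 5.26-fold, HIST1H4C 4.93-fold and HIST1H2AH 4.31-fold lower, and HIST1H2BF was at 0 with oxamate. The 2 higher were HIST1H2AC and HIST2H2BF. With libraries scaled to the same summed FPKM the median of the histone genes kept was 0.0031. Of 18 S phase genes, 17 were at least 1.5-fold lower with oxamate and all 18 were below 0, with a median of -0.93. PCNA, the sliding clamp of the replication fork, stood at 374, 224 and 136 FPKM in parental HepG2, HepG2/metR and oxamate-treated cells, and RRM2, which makes deoxynucleotides, at 113, 150 and 58.0 FPKM. The lists were written with results of these data known, and both comparisons share the HepG2/metR library. The S phase genes were far more abundant than most histone genes, and the difference between the lists was not tested.

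Genes that act on histone mRNA were then read in the same manner. Over all genes kept, 3.82% were at least 1.5-fold lower and 4.3% at least 1.5-fold higher with oxamate. In HepG2/metR against parental HepG2, 16.6% were higher and 17.6% lower past 2-fold. Among 15 genes for transcription and 3′ end processing, SLBP was the only one at least 1.5-fold lower with oxamate, at 47.4, 45.5 and 27.1 FPKM (log2 difference -0.73). LSM11, a subunit of the U7 ribonucleoprotein, was the only one at least 1.5-fold higher, at 1.88, 3.17 and 5.48 FPKM (0.63). NPAT stood at 3.55, 5.30 and 5.28 FPKM. None of the 15 passed 2-fold in HepG2/metR against parental HepG2. Of 7 histone mRNA decay genes, none passed 2-fold in that comparison or 1.5-fold with oxamate, where their median was 0.087.

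Of 21 histone chaperone and deposition genes, 5 were at least 1.5-fold lower with oxamate (ASF1B, CHAF1B, NASP, HAT1 and HJURP, background 3.82%). None was higher (background 4.3%), and the median was -0.40. NASP, which holds H3 and H4 before deposition, stood at 153, 178 and 112 FPKM. Of 11 replication-independent histone genes kept, 4 were at least 1.5-fold lower (H2AFX, H2AFZ, H3F3B and H1F0) and 0 higher, against the same background, with a median of -0.44. H3F3B, which encodes the variant H3.3, stood at 229, 212 and 131 FPKM.

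In HepG2/metR against parental HepG2, 4 of the 18 S phase genes were higher past 2-fold (MCM6, POLA1, CCNE2 and CDK2) and 0 lower, with a median of 0.15. These counts stand beside the background of 16.6% higher and 17.6% lower over all genes. The chaperones had 3 higher (RBBP7, HJURP and NAP1L1) and 3 lower (ASF1A, HIRA and IPO4), and 1 replication-independent histone gene, H2AFY2, was lower.

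**Figure D4:**
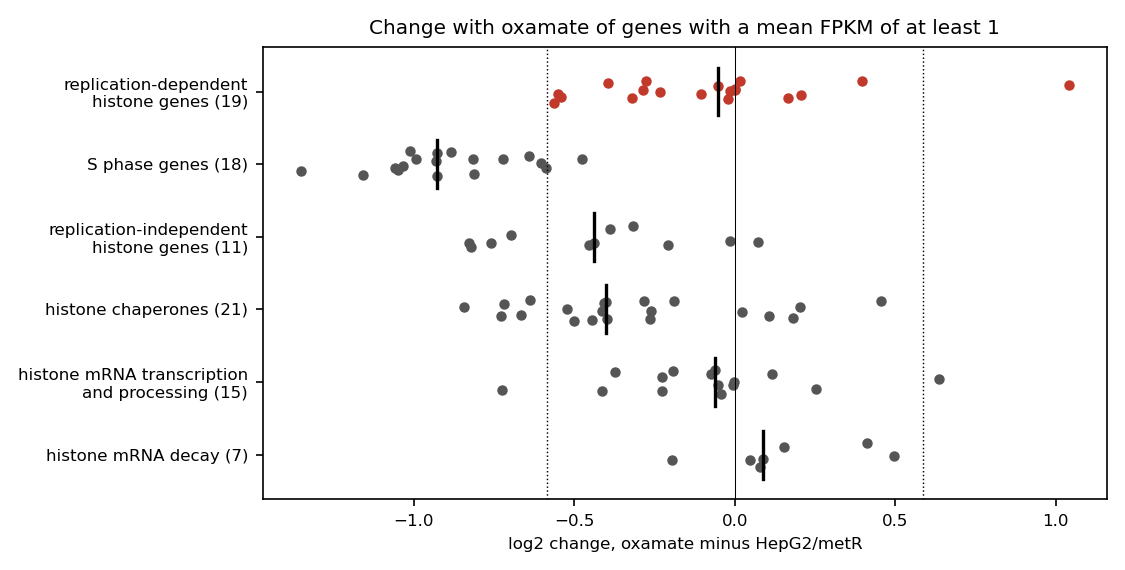
Log2 difference with oxamate (oxamate minus HepG2/metR) of genes with a mean of at least 1 FPKM, 1 point per gene, by list, with the number of genes in parentheses, the median as a bar and dotted lines at 1.5-fold either way. The 18 S phase genes all lie below 0 (median -0.93). Of the 19 histone genes (median -0.05), 12 lie below 0 and 5 above, with HIST1H2AC at 1.04. Over all 12210 genes kept, not drawn here, 5563 were below 0 and 6461 above, with a median of 0.021. HIST1H2BL and HIST1H3H were at 0 FPKM in both libraries, so their difference of 0 was fixed.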

How the data were processed

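Total RNA of 3 cell preparations was sequenced on an Illumina NextSeq 500, 1 library per condition. The authors deposited 1 value per gene symbol on a log2 scale. Of the values above 1, 99.7% had the form of log2(FPKM + 1) of an FPKM with 6 digits, and the unit was inferred from that. The submitters' processing notes name STAR 2.5.1b, FastQC 0.11.5, Cufflinks 2.2.1 and build hg19. The annotation, strand setting, multi-read handling and library selection are not given in the sources used here. Counts and total depth are unknown, and the number of libraries limits the precision.

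Values were back-transformed to FPKM. Differences of the deposited log2 values were taken, with the pseudocount of 1 they include, for genes with a mean of at least 1 FPKM, at thresholds of 2-fold (metformin) and 1.5-fold (oxamate). The script was tested on simulated data. The histone genes and all gene lists were chosen with earlier results of these data known. Of the symbols, 28 had been turned into dates and were not used by name. Named were the 5 highest genes per type, the 5 largest differences either way in each comparison, and genes past both thresholds. Also named were genes at 0 in 1 library and at 1 FPKM or more in another, and the HIST3 and HIST4 genes. Genes past 1.5-fold with oxamate without a filter were named too, as were 2 short lists (polyadenylated, testis-specific). Of the other lists, genes past a threshold or defining the list were named. Transcripts and coding sequences came from GENCODE 29 and promoters from RefSeq, both on GRCh38, matched by symbol and position for all 70 genes; no coordinate was converted from hg19. Alternatives were other pseudocounts, filters, scalings and fold thresholds, and sets without pseudogenes or near-identical copies. Python 3.11, pandas 2.3.3, numpy 2.4.6 and matplotlib 3.10.9 were used.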

Additional observations from a re-analysis of the deposited data

How the results depend on the processing

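No paired analysis was possible because each condition had 1 library. Median-of-ratios scaling changed no call among the 19 genes. Sets without pseudogenes, testis-specific genes or near-identical copies removed none of the 19, so they could not change a call. The median log2 difference in HepG2/metR was -0.92 with a pseudocount of 0.1, 0 with no filter on low values, where most genes were at or near 0, and -0.46 with upper-quartile scaling, which moved the median of all genes by 0.13. The median with oxamate turned from -0.05 to 0.0031 when libraries were scaled to the same summed FPKM, which moved the median of all genes by 0.15. With a pseudocount of 0.1, 2 genes were higher and 3 lower with oxamate, and with no filter 2 were higher and 5 lower, in place of 1 and 0. At a mean of at least 5 FPKM, which left 5 histone genes, 1 was higher and 2 lower in HepG2/metR, in place of 3 and 7. The summed FPKM in HepG2/metR was 71.9 without HIST1H2BK, in place of 111.8. With 1 library per condition and unknown depth, the order of values under 1 FPKM is not certain.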
